A study of Mus musculus with 18 samples.

Results

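The Myc, Max and Mxd network was followed through 8 genes, Myc, Mycn, Max, Mnt, Mxi1, Mxd1, Mxd3 and Mxd4. They were found by gene name in the authors' deposited comparison tables and joined by Ensembl identifier to the count table, which lists 22619 genes, and all 8 were found. The data are bulk RNA-seq of thymocytes sorted by flow cytometry from wild-type mouse thymi 28 days after grafting. The sorted populations were CD4 CD8 double-positive cells (DP) and double-negative 3 cells (DN3), the earlier stage at which the T-cell receptor beta chain is rearranged. There were 5 DP autonomy, 4 DP turnover, 5 DN3 autonomy and 4 DN3 turnover libraries, 18 in all. As background, turnover is the state in which progenitors arriving from outside the thymus keep replacing the thymocytes, and autonomy the state in which the graft sustains thymocyte production without them. All groups share the wild-type graft and its time after transplantation, and the host strain, sex and age are not stated in the sources used here. The labels also do not say whether libraries with a common number (RP1133 to RP1141B) came from the same graft, or what the letters A and B mark. The p-values below therefore measure only the spread between these libraries, which may be technical in part.

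Myc and its relative Mycn are basic helix-loop-helix leucine zipper proteins that activate genes for ribosome production, nucleotide synthesis and cell growth. They do so as heterodimers with Max, which bind E-box sequences such as CACGTG. The Mxd proteins (Mxd1, Mxi1, Mxd3 and Mxd4) and Mnt also pair with Max, occupy the same kind of site and recruit Sin3 corepressors with histone deacetylases. In the thymus, Notch and pre-T-cell receptor signals are known inducers of Myc, and Myc is needed for the growth and expansion of cells that pass from the DN3 to the DP stage.

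RefSeq promoter windows of 300 bases around the annotated start were at hand for 7 of the 8 genes (GRCm38.p6). The E-box CACGTG, a palindrome that reads the same on both strands, was present in the windows of 3 of those 7 genes, Mxd4, Mnt and Max. It was present in 7.15% of all 32851 RefSeq windows and in at least 1 window of 8.09% of 27025 genes. The 100 bases around each match are shown because this is the sequence that Max dimers bind, with the E-box in capitals.
Mxd4 (chr5:34187861-34187960, minus strand): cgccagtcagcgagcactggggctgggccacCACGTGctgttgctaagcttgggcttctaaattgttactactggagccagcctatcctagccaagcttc
Mnt (chr11:74830754-74830853, plus strand): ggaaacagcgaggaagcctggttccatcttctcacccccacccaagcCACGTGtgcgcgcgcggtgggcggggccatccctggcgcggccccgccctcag
Max (chr12:76962239-76962338, minus strand): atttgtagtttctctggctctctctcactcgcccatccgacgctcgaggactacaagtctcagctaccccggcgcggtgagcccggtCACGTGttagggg
The match lay at positions -219 to -214 from the annotated start of Mxd4, at -123 to -118 for Mnt and at -3 to 2 for Max. A match is a description of the letters, not evidence of binding in these cells.

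Total counts were 5032273 to 20076446 in DP autonomy, 6329039 to 24191044 in DP turnover, 7426834 to 21808512 in DN3 autonomy and 12260295 to 14846126 in DN3 turnover. Levels below are counts scaled to library size (CPM), with library sizes scaled by the trimmed mean of M-values over all 18 libraries. The sorted stages carried their markers: the 10 DP markers summed to 9669 to 10854 CPM over the DP libraries and to 1324 to 3596 CPM over the DN3 libraries. The 9 DN3 markers summed to 744 to 1677 CPM in DN3 autonomy and 971 to 1150 CPM in DN3 turnover. Of these 9, 3 were called lower in DN3 autonomy and 1 higher, where 8.35% of all genes were lower and 6.53% higher. One DN3 library, turnover RP1141B, stood apart with 3596 CPM of DP markers, against 1736 to 2236 CPM in the other 3 DN3 turnover libraries, and with 135 CPM of Cd4 and 385 CPM of Cd8a. Summed proliferation markers were 3470 to 5845 CPM in DP autonomy and 6360 to 8549 CPM in DP turnover, and 11758 to 15328 CPM in DN3 autonomy and 7973 to 9091 CPM in DN3 turnover. Macrophage markers summed to 16.2 to 125 CPM in DP autonomy and 2.47 to 22.7 CPM in DP turnover, and to 1.86 to 12.1 CPM in DN3 autonomy and 17.3 to 35.7 CPM in DN3 turnover, with Adgre1 at no more than 0.105 CPM in any library. Other marker lists also separated autonomy from turnover without overlap.
The 7 NK markers summed to 1835 to 2523 CPM in DN3 autonomy and 1225 to 1702 CPM in DN3 turnover, of which Gzma made up 99.0% in autonomy and 90.2% in turnover, with Klrd1 at 0 reads in both groups. The 7 dendritic markers summed to 2.52 to 10.3 CPM in DN3 autonomy and 13.05 to 29.6 CPM in DN3 turnover, mostly H2-Ab1, and Itgax and Siglech had 0 reads in DN3 autonomy and Zbtb46 in DN3 turnover. The 8 epithelial and stromal markers summed to 73.5 to 140.1 CPM in DN3 autonomy and 180 to 214 CPM in DN3 turnover, nearly all Epcam and Pecam1, with Krt5 and Pdgfra at 0 reads in both groups. Of the 7 macrophage markers, which did not overlap in DN3 cells either, Lyz2 made up 91.5% in DN3 autonomy and 97.3% in DN3 turnover. In DP cells the 9 DN3 markers summed to 127 to 235 CPM in autonomy and 70.8 to 81.6 CPM in turnover, led by Ptcra, and the 8 pan-T markers to 10176 to 11985 CPM in autonomy and 7941 to 8808 CPM in turnover. The part of other cell types in the results below was not tested.

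Myc (ENSMUSG00000022346, chr15:61985391-61990374, GRCm38, plus strand) was the gene of the network that separated the stages most. It had 18.9, 17.2, 19.1, 17.0 and 31.4 CPM in DP autonomy (libraries RP1133, RP1135, RP1136, RP1137 and RP1138) and 31.3, 41.9, 52.3 and 42.0 CPM in DP turnover (RP1140A, RP1140B, RP1141A and RP1141B). It had 554, 343, 522, 498 and 603 CPM in DN3 autonomy (RP1133, RP1134, RP1135, RP1137 and RP1138) and 587, 665, 791 and 688 CPM in DN3 turnover (RP1140A, RP1140B, RP1141A and RP1141B). Every DP library lay far below every DN3 library. Within each stage most autonomy libraries lay below turnover, and the groups overlapped by 1 autonomy library, RP1138, in both stages.

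Between stages Myc was 24.4-fold lower in DP than in DN3 cells in autonomy (log2 change -4.61, SE 0.21, adjusted p = 3.42e-11, edgeR quasi-likelihood test with Benjamini-Hochberg adjustment over all genes). In turnover it was 16.3-fold lower (log2 change -4.02, SE 0.23, adjusted p = 9.25e-10). In bulk samples fewer cells that express a gene and less RNA per cell cannot be told apart. Autonomy against turnover, Myc averaged 20.7 ± 6.06 CPM in DP autonomy and 41.9 ± 8.58 CPM in DP turnover (SD, n = 5 and 4), a log2 change of -1.03 (SE 0.29) that did not pass over all genes (adjusted p = 0.0849, edgeR). It averaged 504 ± 98.4 CPM in DN3 autonomy and 683 ± 84.1 CPM in DN3 turnover, a log2 change of -0.45 (SE 0.17) that did not pass either (adjusted p = 0.0834).
The call in DP cells depended on the test and on 1 library. It passed with DESeq2 (adjusted p = 0.0197), with limma-voom (0.0302), with all 18 libraries in the edgeR fit (0.0112) and without autonomy library RP1138 (log2 change -1.23, adjusted p = 0.0425).

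Mycn (ENSMUSG00000037169, chr12:12936093-12941914, minus strand), which can replace Myc in many settings, was expressed at a small fraction of the level of Myc. It had 0, 1.80, 0.935, 0.0961 and 2.27 CPM in DP autonomy and 1.31, 6.43, 1.65 and 1.46 CPM in DP turnover, with libraries in the order given for Myc here and below. The 0 in RP1133 allows up to 0.568 CPM at 3 counts, which covers counting error only. In DN3 cells Mycn had 6.64, 2.08, 9.63, 3.76 and 4.80 CPM in autonomy and 9.57, 11.0, 11.3 and 12.9 CPM in turnover. DN3 turnover was thus the group with the highest and most even values, and it overlapped DN3 autonomy by 1 library, autonomy RP1135.
Mycn fell in DP relative to DN3 cells in autonomy (log2 change -2.40, SE 0.81, adjusted p = 0.0189), a call lost without DN3 autonomy library RP1135 (adjusted p = 0.0524). In turnover the DP and DN3 libraries did not overlap, and the log2 change of -2.02 (SE 0.88) did not pass (adjusted p = 0.0803). It was called by DESeq2 (adjusted p = 0.0357), by limma-voom (0.0101), without DP autonomy library RP1133 (0.046) and without DP turnover library RP1140B (0.029), the highest of its group at 6.43 CPM. Autonomy against turnover the log2 change of Mycn was -1.06 (SE 0.40, adjusted p = 0.0902) in DN3 cells and -1.42 (SE 1.19, adjusted p = 0.612) in DP cells. The DN3 change passed without autonomy library RP1135 (log2 change -1.38, adjusted p = 0.0342) and with limma-voom (adjusted p = 0.0424).

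Max (ENSMUSG00000059436, chr12:76937269-76962201, minus strand), the shared partner of all the others, had the smallest ratio of highest to lowest library among the 8. It had 60.9, 59.7, 55.1, 48.9 and 62.5 CPM in DP autonomy and 30.7, 54.5, 31.4 and 41.8 CPM in DP turnover. It had 64.7, 57.6, 64.8, 75.1 and 76.5 CPM in DN3 autonomy and 61.9, 62.8, 59.9 and 75.6 CPM in DN3 turnover. The DN3 groups lay over each other, and DP turnover held the 3 lowest libraries of the 18.
Max fell in DP relative to DN3 cells in turnover (log2 change -0.71, SE 0.20, adjusted p = 0.00791), and the groups did not overlap. The call was lost when the A and B libraries of a number were summed (adjusted p = 0.149). In autonomy the stage difference was -0.24 (95% interval -0.60 to 0.13) on the log2 scale. Autonomy against turnover, Max had a log2 change of 0.52 (SE 0.24, adjusted p = 0.291, edgeR) in DP cells. In DN3 cells that change was 0.05, with a 95% interval of -0.29 to 0.39.

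**Figure D1:**
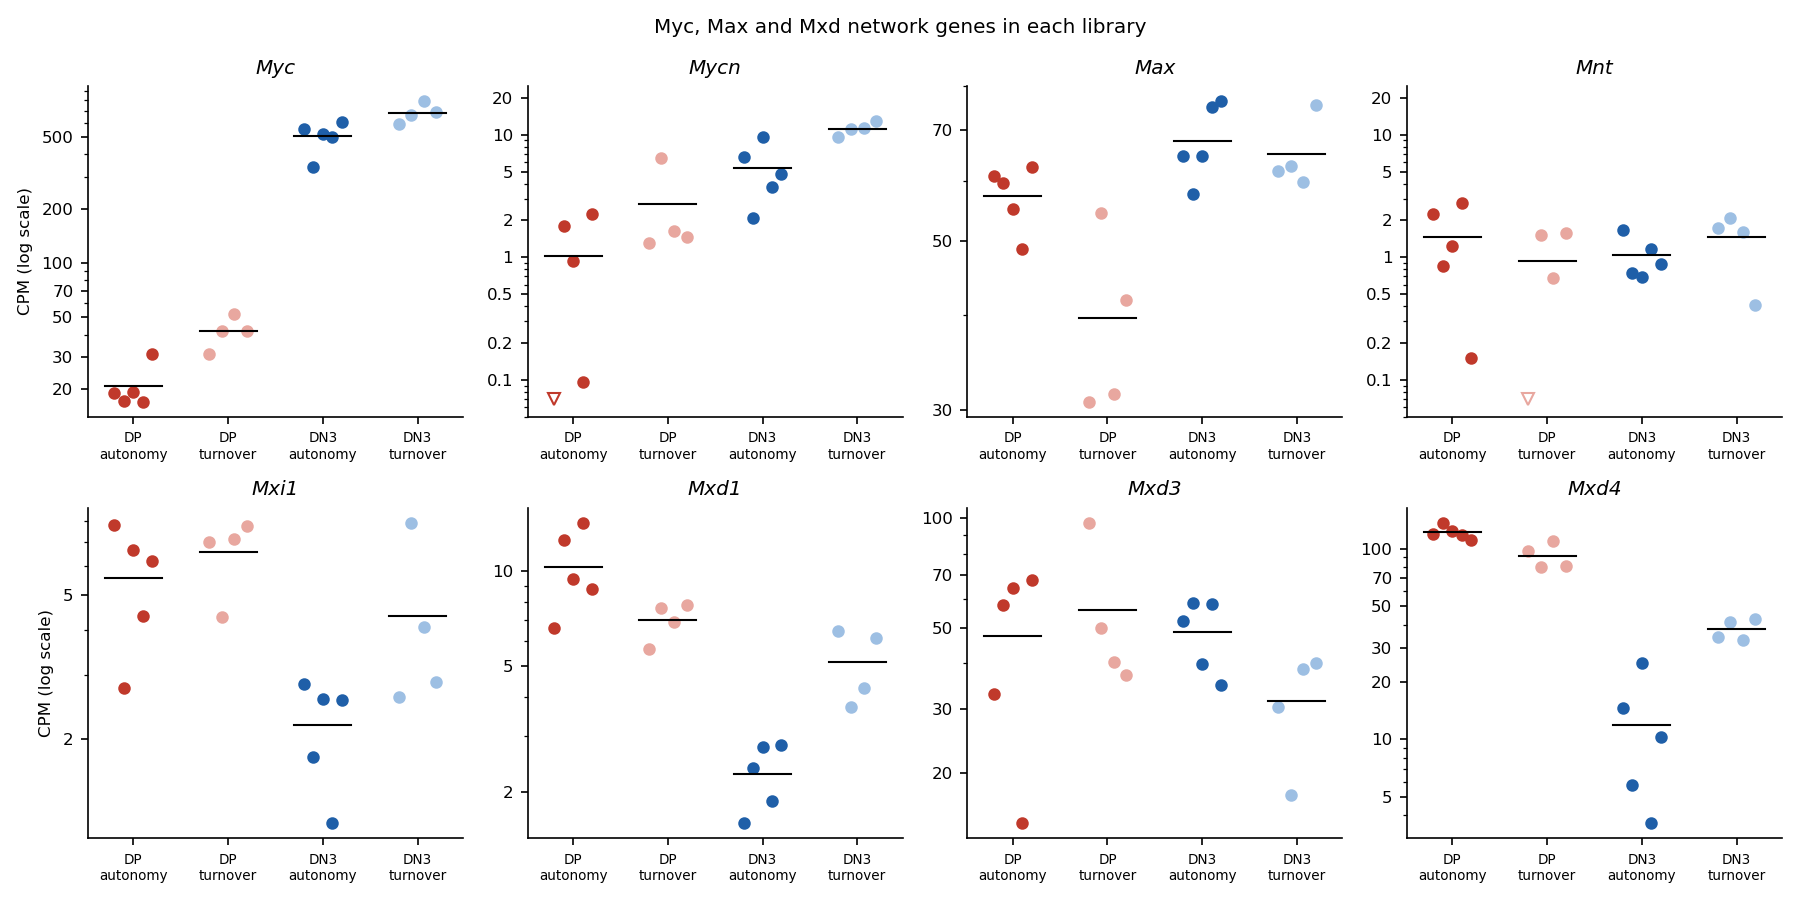
Level of each of the 8 genes in every library, in CPM on a log axis, by group. Points are libraries, black lines are group means, and open triangles at the bottom are libraries with 0 reads. Myc in DP libraries lies between 17.0 and 52.3 CPM, below all DN3 libraries, and Mxd4 is lowest in DN3 autonomy at 3.64 to 25.2 CPM.

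Among the partners of Max that oppose Myc, Mnt (ENSMUSG00000000282, chr11:74830920-74845725, plus strand), a broadly expressed repressor, was near the limit of detection. Its level was at most 2.79 CPM, with 0 to 58 reads in a library. It had 2.27, 0.849, 1.25, 2.79 and 0.151 CPM in DP autonomy and 0, 1.52, 0.674 and 1.57 CPM in DP turnover. It had 1.68, 0.743, 0.695, 1.17 and 0.887 CPM in DN3 autonomy and 1.74, 2.10, 1.62 and 0.410 CPM in DN3 turnover. All 4 groups overlapped. No comparison of Mnt passed, and its intervals were wide, such as -1.44 to 2.44 for the log2 stage difference in autonomy.

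Mxi1 (ENSMUSG00000025025, chr19:53310518-53375810, plus strand), also known as Mad2, had 7.76, 2.76, 6.65, 4.37 and 6.19 CPM in DP autonomy and 6.99, 4.34, 7.10 and 7.74 CPM in DP turnover. It had 2.83, 1.78, 2.58, 1.17 and 2.56 CPM in DN3 autonomy and 2.61, 7.90, 4.07 and 2.87 CPM in DN3 turnover. DN3 autonomy was the lowest group, and it overlapped DP autonomy by DP library RP1135. Mxi1 rose in DP relative to DN3 cells in autonomy (log2 change 1.33, SE 0.51, adjusted p = 0.0358), a call made in 16 of 25 alternatives and lost without DN3 autonomy RP1134, RP1135 or RP1137 or DP autonomy RP1133, RP1136 or RP1138 (adjusted p up to 0.0834). In turnover the log2 difference was 0.58 (SE 0.56, adjusted p = 0.456). Mxi1 shares 194 exon bases with Gm10197 on the opposite strand, and the labels and file headers do not say whether counting used the strand, so reads in those bases cannot be told apart.

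Mxd1 (ENSMUSG00000001156, chr6:86647042-86669161, minus strand), also known as Mad1 and associated with cells leaving the cycle, had 6.62, 12.5, 9.46, 14.3 and 8.76 CPM in DP autonomy and 5.68, 7.65, 6.92 and 7.84 CPM in DP turnover. It had 1.59, 2.38, 2.78, 1.88 and 2.82 CPM in DN3 autonomy and 6.48, 3.70, 4.28 and 6.15 CPM in DN3 turnover. The DN3 groups did not overlap, with autonomy below turnover throughout. The log2 change of -1.17 (SE 0.44) in DN3 autonomy nevertheless did not pass over all genes (adjusted p = 0.0889, edgeR).
Between stages Mxd1 rose 4.50-fold in DP relative to DN3 cells in autonomy (log2 change 2.17, SE 0.41, adjusted p = 0.000217). In turnover its log2 stage difference was 0.45 (95% interval -0.48 to 1.37, adjusted p = 0.472). The difference between these stage effects, which is the same contrast as the difference of the autonomy effect between stages, was 1.72 (SE 0.60) and did not pass (adjusted p = 0.103, edgeR). DESeq2 called it (adjusted p = 0.0248).

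Mxd3 (ENSMUSG00000021485, chr13:55325168-55329823, minus strand), the Mxd protein known to be made in S phase of cycling cells, had a wide spread within groups. It had 32.9, 57.7, 64.2, 14.6 and 67.8 CPM in DP autonomy and 97.3, 49.9, 40.5 and 37.2 CPM in DP turnover. It had 52.3, 58.5, 39.9, 58.2 and 35.0 CPM in DN3 autonomy and 30.4, 17.4, 38.7 and 40.0 CPM in DN3 turnover. No pair of groups was separated, and no comparison of Mxd3 passed. The log2 change in DN3 autonomy was 0.61 (SE 0.26, adjusted p = 0.131), and the stage difference in turnover was 0.83 (SE 0.40, adjusted p = 0.12). Mxd3 shares 105 exon bases with Prelid1 on the opposite strand, which cannot be told apart without the strand setting.

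Mxd4 (ENSMUSG00000037235, chr5:34173883-34187720, minus strand), known from differentiated and resting cells, was the repressor with the clearest pattern. It had 119, 137, 123, 118 and 111 CPM in DP autonomy and 97.1, 80.4, 109 and 80.7 CPM in DP turnover. It had 14.7, 5.79, 25.2, 3.64 and 10.3 CPM in DN3 autonomy and 34.3, 41.0, 33.2 and 42.8 CPM in DN3 turnover. The 4 groups did not overlap, in the order DN3 autonomy, DN3 turnover, DP turnover and DP autonomy.
Mxd4 rose 10.1-fold in DP relative to DN3 cells in autonomy (log2 change 3.34, SE 0.35, adjusted p = 1.83e-07). In turnover it rose 2.43-fold (log2 change 1.28, SE 0.36, adjusted p = 0.00951), a call lost when the A and B libraries were summed (adjusted p = 0.115).
Mxd4 fell in DN3 autonomy to 11.9 ± 8.56 CPM (n = 5), against 37.8 ± 4.77 CPM in DN3 turnover (n = 4), a 3.18-fold drop (log2 change -1.67, SE 0.43, adjusted p = 0.0219). In DP cells it averaged 121.6 ± 9.54 CPM in autonomy and 91.8 ± 13.9 CPM in turnover, a log2 change of 0.39 (SE 0.16) that did not pass (adjusted p = 0.233, edgeR).
The autonomy effect on Mxd4 differed between the stages by 2.06 on the log2 scale, DP minus DN3 (SE 0.49, adjusted p = 0.0165). That difference was called in 23 of 24 alternatives and not with the A and B libraries summed (adjusted p = 0.154). The call on the drop in DN3 autonomy ended in 3 settings: adjusted p was 0.0511 without turnover library RP1140A, 0.0504 without autonomy library RP1138 and 0.103 with the A and B libraries summed. The NK, dendritic, epithelial and stromal, macrophage and proliferation marker sums given above also separated these DN3 groups, and their part in the drop was not tested. DP markers were present in every DN3 library. Of the 10, 3 were called lower and 0 higher in DN3 autonomy (median log2 change -0.79), where 8.35% of all genes were lower. Without turnover library RP1141B, 4 were called higher. Their part in the drop was not tested. Without RP1141B, the DN3 library with the highest DP marker sum, the drop of Mxd4 was of like size (log2 change -1.60, SE 0.47, adjusted p = 0.0444).

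Counted over the network, the autonomy comparison called 1 of the 8 genes in DN3 cells, Mxd4, where 14.9% of the 10766 genes tested were called. There 5 of the 8 (Myc, Mycn, Mxd1, Mxd3 and Mxd4) had an unadjusted p under 0.05 with edgeR, against 31.4% of all genes. DESeq2 called 1 of the 8 (21.2% of all genes) and limma-voom 2 (18.5%). In DP cells the autonomy comparison called 0 of the 8 with edgeR, where 1.72% of 10339 genes were called. There 3 of the 8 (Myc, Max and Mxd4) had an unadjusted p under 0.05 with edgeR, as did 17.1% of all genes. DESeq2 and limma-voom each called 1, Myc. Over all genes DESeq2 called 7.15% and limma-voom 4.20%. DP against DN3 cells, 5 of 8 were called in autonomy, where 49.0% of 11521 genes were called, and 3 of 8 in turnover, where 34.9% were called. The shares called between stages are near those of all genes and are not a result about the network. The difference of the autonomy effect between stages was called for 1 of 8, Mxd4, where 5.49% of genes were called either way and 2.88% higher, as Mxd4 was. These comparisons share libraries: the DN3 autonomy libraries, for example, enter the DN3 autonomy comparison, the stage comparison in autonomy and the difference of effects.
Between stages the groups did not overlap for Myc, Mxd1 and Mxd4 in autonomy, where 37.9% of genes had groups without overlap, and for Myc, Mycn, Max and Mxd4 in turnover, where 34.7% did. Groups without overlap were seen for Mxd1 and Mxd4 in DN3 autonomy against turnover, where 18.3% of genes had them, and for Mxd4 in DP autonomy against turnover, where 8.20% did. In the authors' deposited table for DN3 cells, Mxd4 (log2 change -1.73, adjusted p = 0.00105) and Mycn (-1.20, adjusted p = 0.0339) were lower in autonomy at the same threshold of 0.05. In the authors' deposited table for DP cells, Myc was lower (log2 change -1.03, adjusted p = 0.0086). The plot of autonomy effects shows the edgeR estimates of both stages together.

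**Figure D2:**
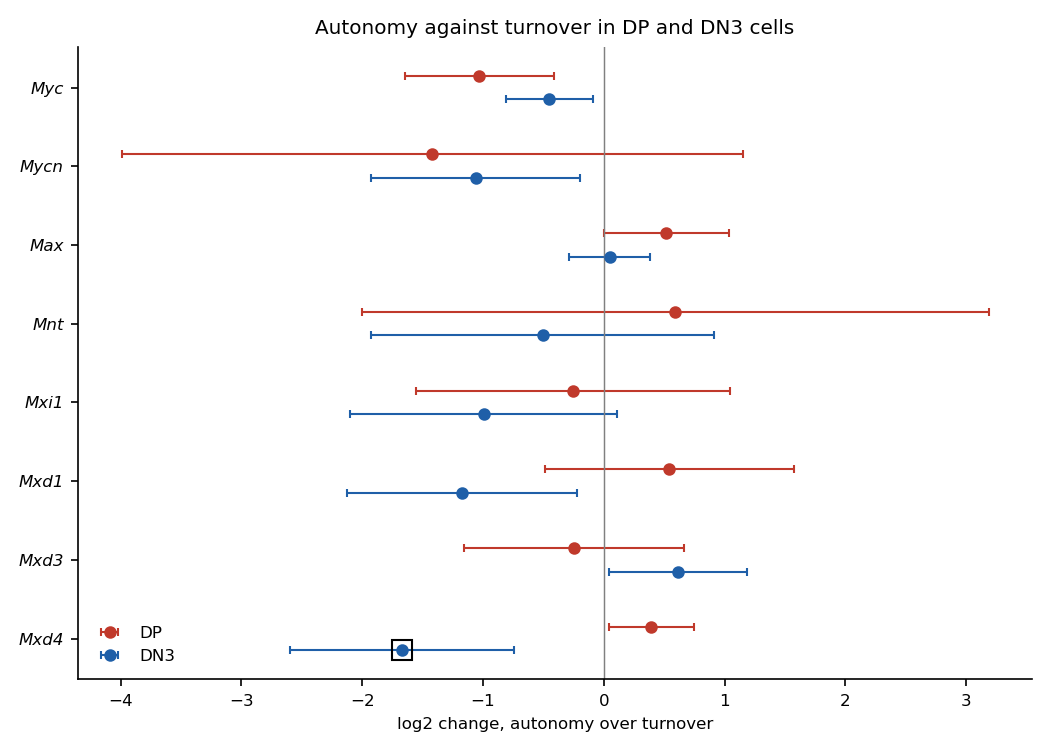
Log2 change of autonomy over turnover for each gene in DP and DN3 cells, with 95% intervals. The boxed estimate, Mxd4 in DN3 cells at -1.67, passed adjustment over all genes. Myc is below 0 in both stages, whereas Mxd4 is above 0 in DP cells and below 0 in DN3 cells.

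Levels were also scaled to exon length (CPM per kilobase of exon, RPKM) to set the genes side by side, in an order that depends on the length used. In DP autonomy the order was Mxd3 (20.0 ± 9.65 RPKM), Max (16.0 ± 1.54), Mxd4 (14.3 ± 1.12) and Myc (7.63 ± 2.23), and Mxd3 did not differ from Max or Mxd4 beyond its spread. In DP turnover Mxd3 had 23.7 ± 11.8 RPKM, Myc 15.4 ± 3.16, Max 11.0 ± 3.10 and Mxd4 10.8 ± 1.64, where Max and Mxd4 did not differ beyond their spread, nor Mxd3 and Myc beyond that of Mxd3. Myc led in both DN3 groups by a wide margin.
Myc had 185 ± 36.2 RPKM in DN3 autonomy and 251 ± 30.9 RPKM in DN3 turnover. Behind it stood Mxd3 at 20.6 ± 4.56 RPKM in DN3 autonomy and 13.3 ± 4.39 RPKM in DN3 turnover, and Max at 18.8 ± 2.20 RPKM in DN3 autonomy and 18.1 ± 1.99 RPKM in DN3 turnover. Mxd3 and Max did not differ beyond their spread in DN3 autonomy. Mxd4 was at 1.41 ± 1.01 RPKM in DN3 autonomy and 4.46 ± 0.563 RPKM in DN3 turnover. Mycn, Mnt, Mxi1 and Mxd1 had group means of at most 3.40 RPKM. The length of the principal transcript was also used in place of all exons, a choice made after seeing the data. The mean of Mxd4 then moved above that of Max in both DP groups, but not beyond their spread. Mxd4 had 31.4 ± 2.46 RPKM and Max 29.6 ± 2.85 in autonomy, and 23.7 ± 3.60 and 20.4 ± 5.74 in turnover. Myc still led in DN3 cells.

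Of the summed length-scaled level of the 8 genes, Myc took 12.6% ± 2.59 in DP autonomy, 24.7% ± 7.02 in DP turnover, 80.6% ± 3.85 in DN3 autonomy and 85.9% ± 1.78 in DN3 turnover. Max took 26.8% in DP autonomy, 17.5% in DP turnover, 8.32% in DN3 autonomy and 6.24% in DN3 turnover. Mxd4 took 24.4% in DP autonomy, 17.1% in DP turnover, 0.605% in DN3 autonomy and 1.54% in DN3 turnover.
The ratio of Myc to Max, on the length-scaled level, was 0.475 ± 0.111 in DP autonomy, 1.48 ± 0.509 in DP turnover, 9.82 ± 1.44 in DN3 autonomy and 14.0 ± 2.45 in DN3 turnover. The range was 0.381 to 0.665 in DP autonomy and 1.02 to 2.21 in DP turnover, without overlap. In DN3 cells it was 7.87 to 11.3 in autonomy and 12.1 to 17.5 in turnover, also without overlap. Myc per summed Mxd level averaged 0.216 in DP autonomy, 0.464 in DP turnover, 8.60 in DN3 autonomy and 13.5 in DN3 turnover. Unlike Myc per Max, it overlapped between autonomy and turnover in both stages. Its range was 0.148 to 0.275 in DP autonomy and 0.212 to 0.602 in DP turnover. In DN3 cells it was 4.85 to 13.3 in autonomy and 10.9 to 17.7 in turnover. These ratios are of transcripts, not proteins, and were not tested.

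**Figure D3:**
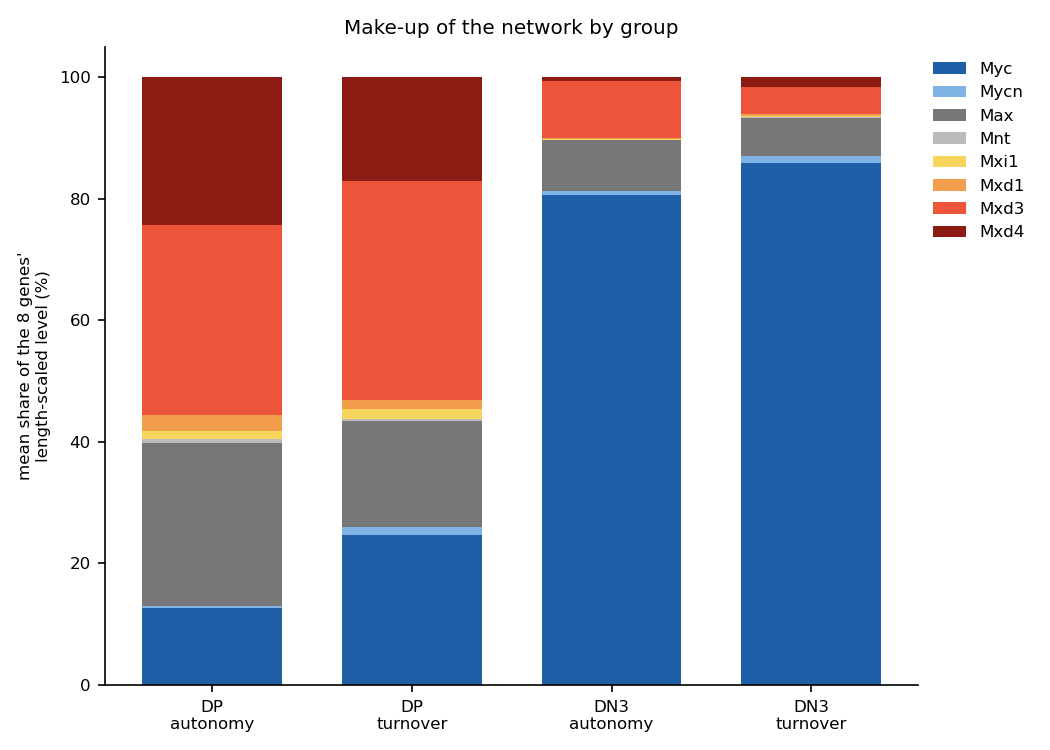
Mean share (%) of each gene in the summed length-scaled level of the 8 genes, by group. Myc fills 80.6% and 85.9% of the DN3 autonomy and DN3 turnover bars, and Mxd3, Max and Mxd4 fill most of the DP bars.

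Across libraries Myc and Mxd4 ran opposite between stages and alike within DN3 cells. Pearson's r of their log2 CPM was -0.78 over the 18 libraries, -0.75 over the 9 DP libraries and 0.72 over the 9 DN3 libraries. The libraries fall into separate stages and, within a stage, into autonomy and turnover, so these values describe the group differences above and carry no test. In the DN3 libraries Mycn and Mxd4 also went together (r = 0.93), as did Mxi1 and Mxd4 (0.78) and Mxd1 and Mxd4 (0.76). Mxd3 and Mxd4 ran opposite there (-0.70), and r with Mxd4 was 0.14 for Mnt and -0.21 for Max.

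**Figure D4:**
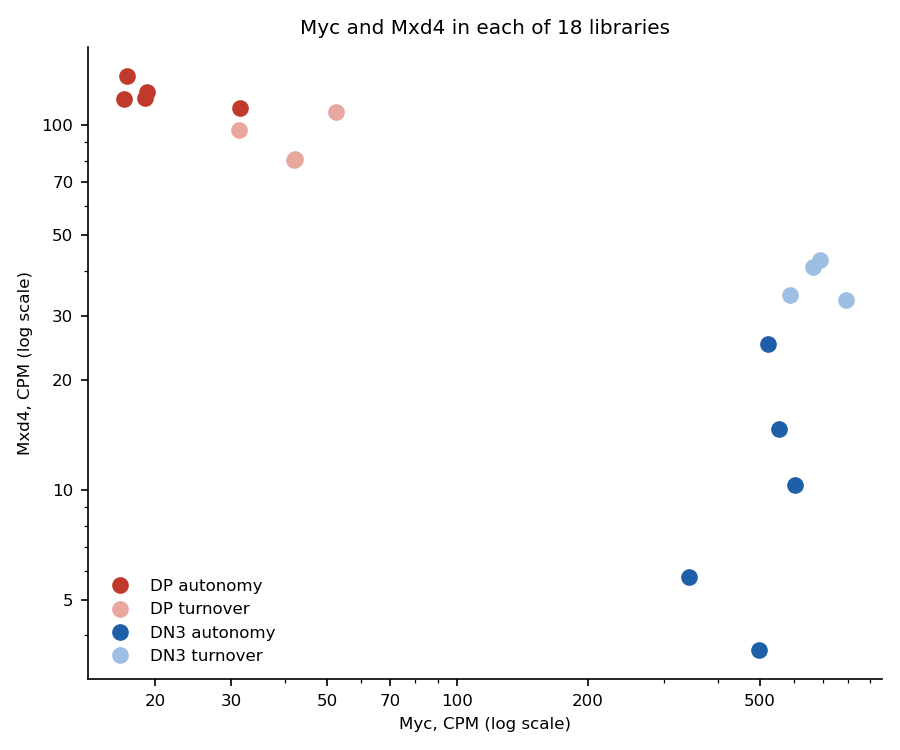
Myc against Mxd4 in each of the 18 libraries, both in CPM on log axes. The DP libraries sit at high Mxd4 and low Myc, the DN3 turnover libraries at 33.2 to 42.8 CPM of Mxd4, and the DN3 autonomy libraries below them, and the points of DP turnover RP1140B and RP1141B lie on top of each other.

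The genes whose log2 CPM was most like Myc over the 18 libraries were Tcrg-V7 (r = 0.978), Phgdh (0.975), the first enzyme of serine synthesis, and Acot5 (0.975). Those most opposed were the T-cell receptor alpha segments Trav6-5 (-0.977) and Trav8n-2 (-0.976), and Apbb1ip (-0.972). Within the 9 DP libraries r with Myc was 0.66 for Phgdh, -0.94 for Apbb1ip, -0.73 for Trav6-5 and -0.71 for Trav8n-2. Within the 9 DN3 libraries it was -0.34 for Phgdh and 0.20 for Apbb1ip, of the other sign for both. The alpha segments shared the same r there to every digit, as genes without varying counts would, so it is not read. For Tcrg-V7 and Acot5 r with Myc within the DN3 libraries was 0.54 and -0.08. Within the DP libraries both genes shared the same r to every digit, and it is not read either. Nearest to Max were Psmd11 (0.880), Spr (0.880) and Tradd (0.872). Their r with Max was 0.94, 0.85 and 0.91 within the DP libraries, but 0.60, 0.21 and 0.10 within the DN3 libraries. Nearest to Mxd3 were Depdc1b (0.806), Slc39a14 (0.784) and Ndc80 (0.779), a kinetochore component. Nearest to Mxd4 were Ypel3 (0.974), Abcg1 (0.974) and Aqp11 (0.967), a DP marker. For these 3, r with Mxd4 was 0.60, 0.63 and 0.88 within the DP libraries and 0.95, 0.97 and 0.92 within the DN3 libraries.

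Genes known to be induced by Myc were lower in DP cells almost throughout. Of 35 such genes tested, 34 fell in DP relative to DN3 cells in autonomy, with a median log2 change of -2.59, against 25.2% of all genes lower and a median of -0.003. In turnover 33 of 35 fell, with a median of -2.10, against 19.1% of all genes and a median of -0.04. This list and the lists that follow were chosen with earlier results of these data known. The shares of all genes beside their counts are therefore a description and not a test. Npm1, a nucleolar chaperone, averaged 443 CPM in DP autonomy and 3360 CPM in DN3 autonomy (log2 change -2.92, SE 0.15). Cdk4, the G1 kinase, averaged 216 CPM in DP autonomy and 1134 CPM in DN3 autonomy (log2 change -2.39, SE 0.13). Ncl (nucleolin) averaged 517 CPM in DP turnover and 2048 CPM in DN3 turnover (log2 change -1.98, SE 0.16). The CACGTG motif stood in the promoter windows of 8 of the 28 genes of the list that had one (28.6%), against 8.09% of all genes with a window. For the list of genes repressed by Myc, described below, it stood in those of 2 of 11 (18.2%).

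In DN3 autonomy 18 of the 35 rose and 1 fell, with a median log2 change of 0.54, against 6.53% of all genes higher and a median of -0.05, while Myc itself had a log2 change of -0.45 that did not pass. Mthfd2, a mitochondrial one-carbon enzyme, averaged 237 CPM in DN3 autonomy and 112 CPM in DN3 turnover (log2 change 1.08, SE 0.16, adjusted p = 0.00143). Hspd1, a mitochondrial chaperonin, averaged 1708 CPM in DN3 autonomy and 892 CPM in DN3 turnover (log2 change 0.93, SE 0.18). Nolc1, a nucleolar protein, had a log2 change of 0.91 (SE 0.18). Ccnd2, cyclin D2, was the 1 that fell, with 182 CPM in DN3 autonomy and 470.2 CPM in DN3 turnover (log2 change -1.38, SE 0.36, adjusted p = 0.0238). That call ended without autonomy RP1133 or RP1137 or turnover RP1140A or RP1141A (adjusted p up to 0.0628).
The count of 18 depended on single libraries. It was 5 without turnover RP1140A, 10 without turnover RP1140B, 12 without turnover RP1141B, 7 without autonomy RP1137 and 8 without autonomy RP1138. In DP autonomy 1 of 34 rose, where 0.861% of all genes did, and 0 fell. The 1 was Nop56, a ribosomal RNA processing factor (531 CPM in autonomy and 346 CPM in turnover, log2 change 0.61, SE 0.13, adjusted p = 0.0311), a call that ended when any of 6 libraries was left out, RP1133, RP1135, RP1137, RP1140B, RP1141A or RP1141B (adjusted p up to 0.0875). The difference of the autonomy effect between stages passed for 2 of 35, Mthfd2 (-1.48, SE 0.34) and Npm1 (-0.87, SE 0.21), both lower in DP minus DN3, where 2.61% of all genes were.

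Genes known to be repressed by Myc, among them cell cycle inhibitors, were mostly higher in DP cells. In DP relative to DN3 cells 7 of 11 rose and 2 fell in autonomy (median log2 change 2.54, with 23.7% of all genes higher), and again 7 rose and 2 fell in turnover (median 1.22, with 15.8% of all genes higher). Hbp1, a transcriptional repressor of cell cycle genes, averaged 549 CPM in DP autonomy and 57.5 CPM in DN3 autonomy (log2 change 3.26, SE 0.21). Btg2, an antiproliferative factor, averaged 428 CPM in DP autonomy and 47.2 CPM in DN3 autonomy (log2 change 3.18, SE 0.23). Cdkn1a, the inhibitor p21, and Ndrg1 went the other way, with log2 changes of -5.23 (SE 0.84) and -4.74 (SE 0.69) in autonomy.
In DN3 autonomy 4 of 11 fell and 0 rose, against 8.35% of all genes lower. Hbp1 averaged 57.5 CPM in DN3 autonomy and 220.4 CPM in DN3 turnover (log2 change -1.95, SE 0.25, adjusted p = 0.000591). Cdkn1a averaged 22.1 CPM in DN3 autonomy and 65.4 CPM in DN3 turnover (log2 change -1.57, SE 0.25, adjusted p = 0.00228), and Btg2 had a log2 change of -1.48 (SE 0.25, adjusted p = 0.00293). In DP autonomy 2 of 11 fell, against 0.861% of all genes, Ccng2 (log2 change -0.69, SE 0.15, adjusted p = 0.0379) and Cdkn2c (-1.33, SE 0.29, adjusted p = 0.0406). The pair was not called together without any 1 of the 9 libraries: 0 to 1 of the 11 then passed, with adjusted p up to 0.106 for Ccng2 and 0.107 for Cdkn2c. The difference of the autonomy effect between stages passed for 3 of 11, all higher in DP minus DN3, where 2.88% of all genes were. They were Hbp1 (2.26, SE 0.29), Btg2 (1.44, SE 0.31) and Gadd45a (2.07, SE 0.54). Leaving out 1 library gave 2 to 3.

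Proliferation genes moved in opposite directions in the stages. In DN3 autonomy 18 of 20 rose and 0 fell (median log2 change 0.81), where 6.53% of all genes rose, and in DP autonomy 7 of 20 fell and 0 rose (median -0.69), where 0.861% of all genes fell. The difference of the autonomy effect passed for 18 of 20, all lower in DP minus DN3, where 2.61% of all genes were. The DP count was 3 without turnover RP1140A, 1 without turnover RP1140B, 4 without turnover RP1141B, 3 without autonomy RP1133 and 4 without autonomy RP1137. Between stages 20 of 20 fell in DP relative to DN3 cells in autonomy, against 25.2% of all genes. In turnover 3 rose, near the 15.8% of all genes, and 8 fell, against 19.1%. The plot of the target lists shows each gene of these lists by comparison.

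**Figure D5:**
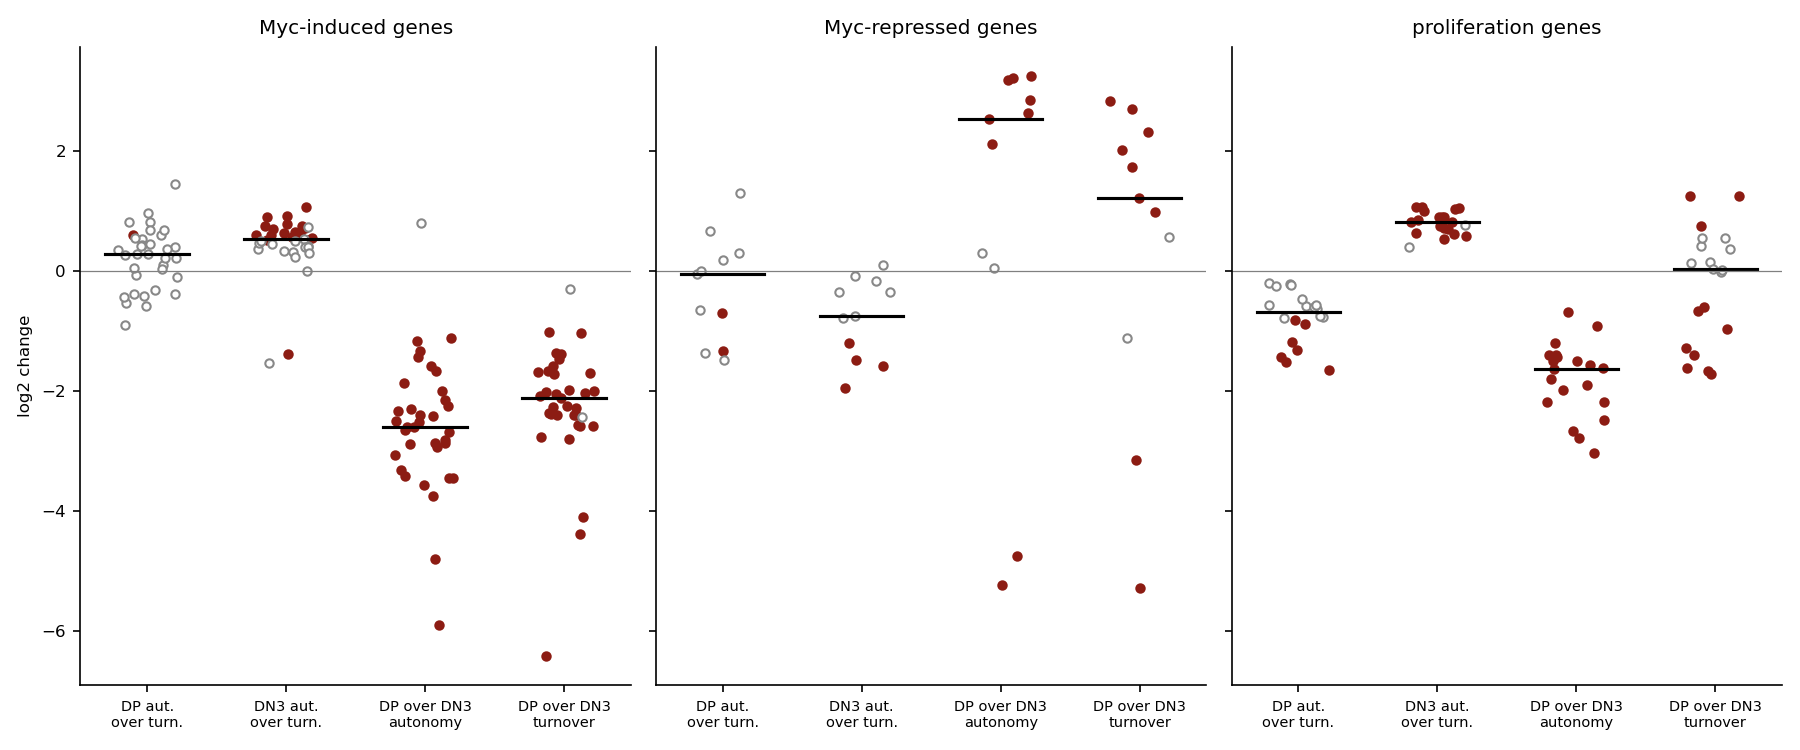
Log2 changes of genes known to be induced by Myc, repressed by Myc, and of proliferation genes, in 4 comparisons (aut., autonomy and turn., turnover). Filled points passed adjustment over all genes, open points did not, and black lines are medians. In both DP over DN3 columns the induced genes lie below 0, but for 1 open point in autonomy, with medians of -2.59 in autonomy and -2.10 in turnover.

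Among the other genes of the machinery, more calls fell between stages than between autonomy and turnover, as over all genes (49.0% and 34.9% called between stages, 14.9% in DN3 autonomy and 1.72% in DP autonomy). Of the 8 other Max and Mlx partners or E-box factors listed, 6 were tested in DN3 cells and 5 in DP cells, and 0 passed in either autonomy comparison with edgeR, 0 at an unadjusted p under 0.05 and 0 with DESeq2 or limma-voom. DP against DN3 cells, 3 of 6 rose and 1 fell in autonomy (23.7% and 25.2% of all genes). Mga, a Max partner of the non-canonical Polycomb complex, averaged 239.6 CPM in DP autonomy and 122 CPM in DN3 autonomy (log2 change 0.98, SE 0.24). Mlx, the Max-like partner of Mondo proteins, rose by 0.69 (SE 0.16) on the log2 scale, and Tfap4, itself a Myc target, fell (log2 change -2.86, SE 0.92).
Of 15 Sin3 corepressor genes 0 passed in either autonomy comparison with edgeR. In DN3 cells 3 had an unadjusted p under 0.05 (31.4% of all genes), DESeq2 called 2 (21.2% of all genes) and limma-voom 0 (18.5%). In DP cells 4 had an unadjusted p under 0.05 (17.1% of all genes), DESeq2 called 3 (7.15%) and limma-voom 2 (4.20%). Of the same 15, 6 rose and 5 fell in DP relative to DN3 cells in autonomy, where 23.7% of all genes rose and 25.2% fell. Sin3b, the scaffold, averaged 536 CPM in DP autonomy and 279.6 CPM in DN3 autonomy (log2 change 0.94, SE 0.13). The histone binding subunit Rbbp7 averaged 200.4 CPM in DP autonomy and 809 CPM in DN3 autonomy (log2 change -2.01, SE 0.15). In turnover 5 of 15 rose and 2 fell, where 15.8% of all genes rose and 19.1% fell, and 4 fell without DN3 turnover library RP1141B. Of 16 Myc cofactors 1 rose in DN3 autonomy, near the share of all genes (6.53%). It was the helicase Ruvbl2 (413 CPM in autonomy and 262 CPM in turnover, log2 change 0.65, SE 0.17, adjusted p = 0.0261), a call that ended without autonomy RP1137 or RP1138 or turnover RP1140A, RP1140B or RP1141B (adjusted p up to 0.0745). Of the same 16, 4 rose and 7 fell in DP relative to DN3 cells in autonomy (23.7% and 25.2% of all genes).

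Among 17 genes that feed into Myc expression in thymocytes, 5 rose and 7 fell in DP relative to DN3 cells in autonomy (23.7% and 25.2% of all genes), and 4 rose and 6 fell in turnover (15.8% and 19.1%). Notch1, whose receptor induces Myc, averaged 177 CPM in DP autonomy and 1421 CPM in DN3 autonomy (log2 change -3.00, SE 0.30). Il7r had 0 reads in all DP turnover libraries and averaged 145 CPM in DN3 turnover. In DN3 autonomy 2 rose and 2 fell, where 6.53% of all genes rose and 8.35% fell. The Notch target Dtx1 averaged 112.6 CPM in DN3 autonomy and 45.5 CPM in DN3 turnover (log2 change 1.30, SE 0.28, adjusted p = 0.0099) and Lef1 rose by 0.76 (SE 0.15). Hes1, also a Notch target, averaged 88.6 CPM in DN3 autonomy and 162 CPM in DN3 turnover (log2 change -0.88, SE 0.26, adjusted p = 0.0355), and Bcl11b fell by 1.05 (SE 0.19). In DP autonomy Dtx1 averaged 40.5 CPM, against 4.95 CPM in DP turnover (log2 change 2.99, SE 0.51, adjusted p = 0.016), and Tcf12 had a log2 change of -0.52 (SE 0.12, adjusted p = 0.0481). The calls of Hes1 and Tcf12 were weak: the call of Hes1 ended when any of 7 of the 9 DN3 libraries was left out, all but autonomy RP1134 and RP1135 (adjusted p up to 0.0844), and that of Tcf12 when any of 8 of the 9 DP libraries was, all but autonomy RP1138 (adjusted p up to 0.143).
Of 12 tested genes that set the stability of Myc protein, 1 rose in DN3 autonomy, near the 6.53% of all genes. In DP autonomy 0 passed with edgeR, 3 had an unadjusted p under 0.05 (17.1% of all genes), and DESeq2 called 2 (7.15%) and limma-voom 1 (4.20%). The gene that rose was Aurka, a mitotic kinase known to stabilise Mycn protein, with 179 CPM in DN3 autonomy and 107 CPM in DN3 turnover (log2 change 0.74, SE 0.16, adjusted p = 0.0101), which was also the 1 gene whose autonomy effect differed between stages (-1.56, SE 0.33, adjusted p = 0.00869). Fbxw7, the ubiquitin ligase subunit that marks Myc for degradation, rose in DP relative to DN3 cells in autonomy (log2 change 0.78, SE 0.28, adjusted p = 0.0247), a call that ended without DN3 autonomy RP1133 or RP1137 or DP autonomy RP1138 (adjusted p up to 0.0618). Gsk3b, a kinase that phosphorylates the Myc site recognised by Fbxw7, rose by 2.19 (SE 0.25).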

How the data were processed

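Raw read counts per Ensembl gene were deposited by the authors. Per the submitters' processing notes the tools were FastQC, HISAT2, featureCounts and DESeq2, with mm10 and GRCm38 as builds, with no versions or settings. RNA was taken up on oligo-dT beads and libraries followed the Pico Nextera protocol, per the labels. The authors' deposited comparison tables give log2 fold changes, p-values, a Wald score and a mean normalised signal per gene, per the file headers.

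Counts were tested with edgeR 4.0.16 (R 4.3.3), with trimmed mean scaling, filterByExpr, the quasi-likelihood test and Benjamini-Hochberg adjustment over all genes tested at 0.05. Autonomy was compared with turnover within 9 libraries of a stage. Stages, and the difference of the autonomy effect, used all 18. SE is the log2 change divided by the root of F. Exon lengths came from GENCODE, to which 22524 of 22619 genes matched, and 211 of 212 list entries were found. The 8 genes and the lists were chosen with earlier results of these data known. All members were named, and from each list up to 3 genes per direction with the smallest p among those called, plus the nearest in pattern. Alternatives were DESeq2 1.42.0, limma-voom 3.58.1, other scaling and filters, A and B libraries summed, a replicate block, and each library left out. Correlations used log2 CPM with a prior count of 2. The fits were tested on simulated data.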

Additional observations from a re-analysis of the deposited data

Results flagged for a closer look

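Myc in DP autonomy library RP1138 was 31.4 CPM, far above the other 4 libraries of its group (17.0 to 19.1 CPM), with a gap of 0.85 of the group's range, above Dixon's 95% critical value. Mycn in DP turnover library RP1140B was 6.43 CPM, far above the other 3 (1.31 to 1.65 CPM), with a gap of 0.933 of the range, also above it. Over 32 groups tested, chance flags about 1 in 20. The autonomy effect on Mxd4 differed between DP and DN3 cells by 2.06 on the log2 scale (edgeR, adjusted p = 0.0165).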

How the results depend on the processing

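Members called and genes called moved by more than 1.5 times under these settings. In DN3 autonomy limma-voom called 2 members, summing the A and B libraries called 0 members and 507 genes, all 18 libraries in 1 fit called 1006 genes, and leaving out 1 library gave 0 to 2 members and 811 to 1784 genes. In DP autonomy DESeq2 called 1 member and 739 genes, limma-voom 1 and 434, all 18 libraries 1 and 279, summed libraries 16 genes, and leaving out 1 library 0 to 1 members and 33 to 252 genes. DP against DN3, leaving out 1 library gave 3 to 5 members in autonomy, and summed libraries gave 1 member and 2170 genes in turnover. For the difference of effects DESeq2 called 2 members and 1037 genes, and summed libraries 0 and 145.

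With the shared number as a replicate block, 3 members were called between stages in autonomy and 291 genes for the difference of effects. The block ended the calls of Mycn (log2 change -3.40, adjusted p = 0.0559) and Mxi1 (0.217) in autonomy and of Max in turnover (0.0531). It added Mycn in turnover (0.0408). Same-numbered DP and DN3 libraries deviated from their group means with r of 0.00117 to 0.0521, all above 0. Libraries with different numbers gave r of -0.0632 to 0.0559, and not every library correlated best with its own number. Values this small cannot decide whether same-numbered libraries share a graft, and the main fits treat them as separate.

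Signs reversed for uncalled changes only. The Mxd3 stage difference in autonomy was 0.0163 with that condition's libraries alone and -0.202 to 0.197 leaving out 1 library. The Mxd3 change in DP autonomy was -0.415 to 0.142 and the Mycn difference of effects -0.876 to 0.529 leaving out 1 library. The cause was not tested. Mnt and Mycn in DP cells rest on at most 169 reads in a library, and counting limits their precision.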
